A study of Mus musculus with 8 samples.

Results

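The comparison described here set the Nr4a1-/- control library against the WT control library, the pair of libraries from eyes that had no laser. Every barcode was kept that had between 200 and 5000 genes with a count and no more than 15% of its UMIs (unique molecular identifiers, counted once per captured transcript) from mitochondrial genes. This left 2020 Nr4a1-/- control cells and 3763 WT control cells, 5783 of the 11223 kept cells of the study. The study profiled live CD45+ immune cells of mouse posterior eye cups, with and without laser injury, and read in each cell both its transcripts and a panel of surface proteins through barcoded antibodies (ADT, antibody tags). Both control groups were female mice aged 10 to 12 weeks, labelled as sham-treated and titled as not lasered, and 22 mice were pooled into 1 library of each genotype. The Nr4a1-/- mice carried the germline Nr4a1tm1Jmi allele in every cell and came, by the study's methods, from a stock of mixed strain background, whereas the WT mice were C57BL/6J. The labels name C57BL/6J for all. Strain background and library number, which also differed, therefore cannot be told apart from genotype. Nr4a1-/- laser and WT laser libraries, from eyes taken on day 3 after 8 burns, served only as a second, separate pair of libraries whose values stand beside the controls.

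Nr4a1 encodes an orphan nuclear receptor of the NR4A family and is an immediate-early gene, switched on within minutes by antigen receptor signals, growth factors and stress. In mice it is needed for the making or survival of non-classical (Ly6C-low) monocytes, the patrolling cells that arise from classical monocytes. Its relatives Nr4a2 and Nr4a3 bind similar DNA elements.

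The Nr4a1-/- control library held 13265758 RNA UMIs and the WT control library 23750183, with medians of 5478 and 5202 UMIs per cell. Cells were sorted into 16 gates by fixed marker genes, and 387 Nr4a1-/- cells (19.2%) and 857 WT cells (22.8%) matched no gate. A gate names cells by those transcripts only. The libraries shared 1 cell barcode. With 1 pooled library a side, animals cannot be compared and no p-value was computed. Intervals are exact 95% intervals and cover counting error only. Levels are in CPM, a gene's UMIs divided by the total of the gate and multiplied by 1000000, and every ratio is Nr4a1-/- over WT. A gene was counted as higher or lower when its CPM differed at least 2-fold, among genes whose mean level stood for at least 20 UMIs in the shallower library, in the 8 gates with at least 50 cells in each library.

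Nr4a1 itself (ENSMUSG00000023034, GRCm38 chromosome 15, 101254269 to 101274795, plus strand) was lower in Nr4a1-/- cells of all 8 gates, but its reads were not gone. B cells held the highest level of both libraries, 183 CPM in the Nr4a1-/- control and 410 CPM in the WT control (ratio 0.447, 95% interval 0.399 to 0.5). T cells had the smallest ratio, with 23.9 CPM in the Nr4a1-/- control against 119 CPM in the WT control (0.201, 0.146 to 0.272). Over the 8 gates the level ran from 23.9 to 183 CPM in the Nr4a1-/- control and from 104 to 410 CPM in the WT control, so the ranges overlapped between gates although no gate reversed. In microglia it was 57.1 CPM against 185 CPM (0.309), and in Lyve1 macrophages 30.9 CPM against 104 CPM (0.297). Summed over all cells it was 90.7 CPM in Nr4a1-/- and 310 CPM in WT (0.293, 0.275 to 0.311), with a UMI in 35.4% of Nr4a1-/- cells and 56.4% of WT cells. In the laser pair the ratio lay between 0.128 and 0.697 over the same gates. The counts are tags of the 3' end and do not show which part of the transcript the knockout allele disrupts.

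**Figure D1:**
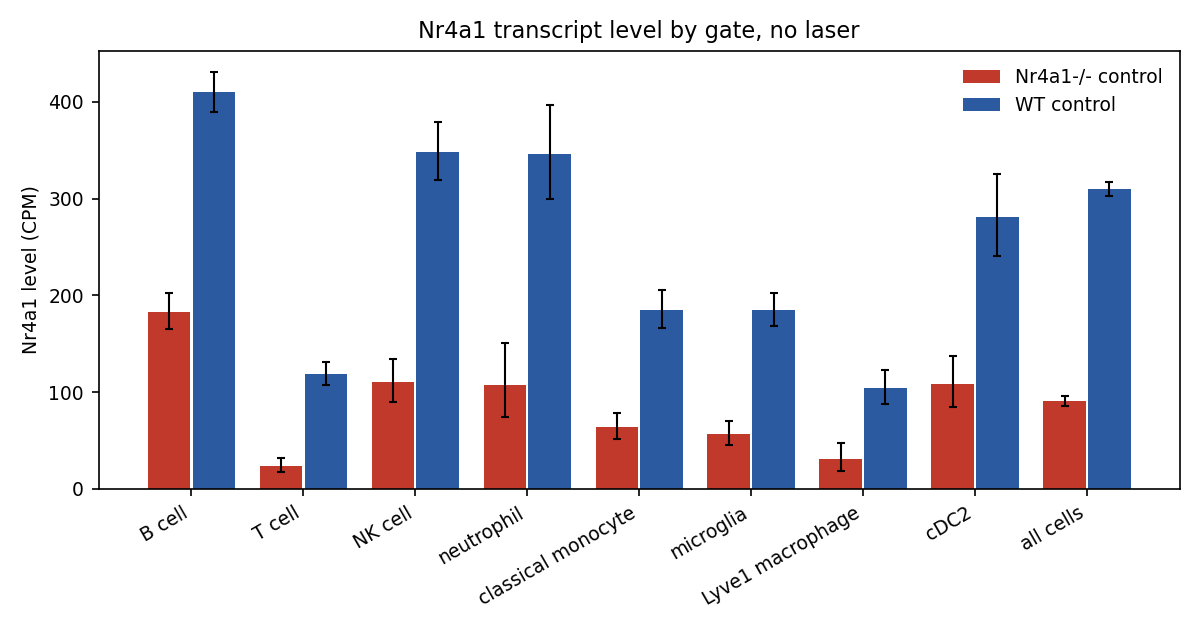
Nr4a1 level in CPM (vertical axis) in each of the 8 gates and in all cells, as 1 bar for the Nr4a1-/- control library (red, left) and 1 for the WT control library (blue, right). Lines are 95% counting intervals. In every gate the Nr4a1-/- bar is below the WT bar and above 0, with 183 CPM against 410 CPM in B cells as the tallest pair.

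Non-classical monocytes, gated on Ace, Cd300e, Treml4, Adgre4, Eno3 and Spn, were nearly lacking in the knockout. They numbered 4 of 2020 Nr4a1-/- cells (0.198%, 0.054% to 0.506%) against 220 of 3763 WT cells (5.85%, 5.12% to 6.64%), a ratio of 0.0339 (0.00915 to 0.088). The laser pair had 2 cells against 146. Classical monocytes, gated on Ly6c2, Chil3, Vcan, Ccr2, F13a1 and Fn1, made up 6.44% (5.4% to 7.6%) of Nr4a1-/- cells and 4.97% (4.3% to 5.71%) of WT cells, a ratio of 1.30 (1.03 to 1.63). As shares of gated cells only, the ratio of classical monocytes was 1.24 (0.981 to 1.56), an interval that included 1. Neither gate used Nr4a1.

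Plasma cells were the other gate that was lower: 0 of 2020 Nr4a1-/- cells, which allows a share of up to 0.149% with 0 read as 3 cells (exact upper limit 0.182%), against 18 WT cells (0.478%). Their marker genes, which define the gate, summed to 0.514 UMIs per 10000 in the Nr4a1-/- library and 3.13 per 10000 in the WT library. Of the 682 Nr4a1-/- UMIs of these markers, 529 lay in the B cell gate. There they were 2.51 per 10000 in Nr4a1-/- and 2.02 in WT. The laser pair also had 0 against 14 plasma cells. cDC2, the conventional dendritic cells marked by Cd209a and Flt3, took a larger share of Nr4a1-/- cells (55 cells, 2.72%, against 58 WT cells, 1.54%, ratio 1.77, 1.2 to 2.6). Retinal pigment epithelium, which is not an immune cell, was 0.792% of Nr4a1-/- cells (16 cells) and 0.345% of WT cells (13 cells), with a ratio of 2.29 (1.03 to 5.18), or 2.19 (0.988 to 4.95) as shares of gated cells, which included 1.

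The remaining 11 of the 16 gates had ratio intervals that included 1. B cells were 23.3% of Nr4a1-/- cells and 21.2% of WT cells, T cells 15.8% and 14.3%, and NK cells 8.96% and 8.53%. Microglia were 9.6% and 8.32%, neutrophils 4.21% and 3.80%, and Lyve1 macrophages 4.16% and 4.78%. Within T cells, 43.8% of Nr4a1-/- cells (38.2% to 49.4%) and 48.3% of WT cells (44.0% to 52.6%) had a UMI of Cd8a or Cd8b1, against at most 0.637% in the B cell gates, and the CD4 shares were 29.1% and 29.9%. These are shares of sorted cells, so a lower share of 1 type raises those of the others.

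**Figure D2:**
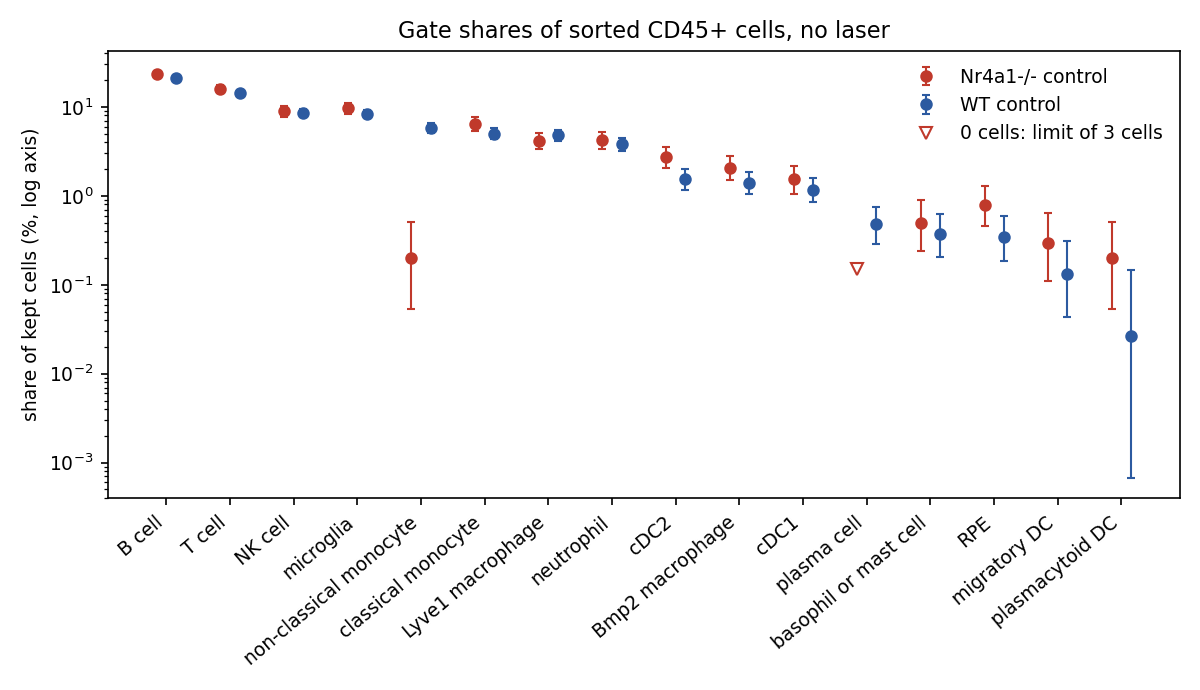
Share of kept cells (percent, log axis) in each of the 16 gates, Nr4a1-/- control in red on the left and WT control in blue on the right, with exact 95% binomial intervals; an open triangle marks the limit that a count of 0 cells allows. Non-classical monocytes stand apart at 0.198% against 5.85%, while B, T and NK cells sit at nearly the same height in both libraries.

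Between 21 and 84 genes per gate were at least 2-fold higher in the Nr4a1-/- control and between 28 and 114 at least 2-fold lower, a small share of those tested. In B cells 29 genes were higher (0.363% of 7986) and 114 lower (1.43%). In T cells 21 were higher (0.273% of 7679) and 92 lower (1.2%), and in NK cells 23 higher (0.406% of 5665) and 46 lower (0.812%). Lower genes thus outnumbered higher ones in B, T and NK cells, as they did in neutrophils, classical monocytes and microglia. Neutrophils had 21 higher (0.938% of 2239) and 28 lower (1.25%), and classical monocytes 60 higher (0.925% of 6488) and 113 lower (1.74%). Microglia had 76 higher (1.08% of 7056) and 83 lower (1.18%), Lyve1 macrophages 47 higher (1% of 4686) and 42 lower (0.896%), and cDC2, the smallest gate, 84 higher (2.07% of 4055) and 82 lower (2.02%). Over the 8 gates together, 361 of 45854 tested pairs of a gene and a gate were higher (0.787%) and 600 lower (1.31%). Genes called in at least 1 gate were 789 of 9973 (7.91%).

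Heat shock chaperone genes were the group that was higher in the knockout across lineages. Chaperones of the HSP70, HSP90, HSP60 and HSP40 families fold and refold proteins, and their genes are switched on by the heat shock factor HSF1 when unfolded proteins gather. Of 80 pairs of a listed chaperone gene and a gate that passed the level minimum, 39 were at least 2-fold higher in Nr4a1-/- and 0 lower, beside 0.787% higher over all pairs. The median log2 ratio of the list ran from 0.22 in neutrophils to 1.54 in Lyve1 macrophages, where the median over all genes tested lay between 0.00 and 0.06. Among 6081 genes tested in at least 4 gates, 6 were called higher in at least 4 of them (0.0987%), and all 6 were on this list: Hspa1a, Hspa1b, Hsph1, Bag3, Dnajb1 and Hsp90aa1. The list had been chosen with earlier results of these data in view.

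The promoters of these genes are shown because HSF1 binds inverted repeats of nGAAn. In the 250 bases before the transcription start (RefSeq, GRCm38.p6), the motif GAANNTTC, which reads the same on both strands, was in 6 of the 9 listed genes with an entry and in 2199 of all 32851 promoter entries (6.69%). The bases of each match are in capitals, and the region is given after the gene.
Hspa1a, chr17:34972242-34972271, minus strand: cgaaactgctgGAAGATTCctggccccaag
Hspa1b, chr17:34959324-34959353, minus strand: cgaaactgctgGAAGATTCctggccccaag
Dnaja1, chr4:40722333-40722362, plus strand: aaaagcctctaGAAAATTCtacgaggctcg
Hspe1, chr1:55088053-55088082, plus strand: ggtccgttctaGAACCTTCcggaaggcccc
Hspb1, chr5:135887811-135887840, plus strand: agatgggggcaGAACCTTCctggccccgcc
The Hspa1a and Hspa1b windows are identical, and both matches begin 104 bases before the start. Hspd1 shares the Hspe1 match on the other strand, so this match counts for both genes. Hspb1 held another match, in chr5:135887791-135887820, which is not shown. Dnajb1, Hsph1 and Bag3 held no match in this window, nor did the Nr4a1 promoter. A match describes the letters of the window, not binding.

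Hspa1a and Hspa1b encode the inducible HSP70 proteins. The genes are near-identical copies, so the split of reads between them is uncertain. Summed over all cells, Hspa1a was 585 CPM in the Nr4a1-/- control and 64.5 CPM in the WT control (ratio 9.08, 8.59 to 9.6), beside 57.8 CPM in Nr4a1-/- laser and 73.1 CPM in WT laser. The Nr4a1-/- control library thus stood apart from the 3 others, the laser library of its own genotype included. Hspa1b gave 154 CPM against 10.3 CPM in the control pair, and 8.48 CPM against 9.42 CPM in the laser pair. Hsph1, which encodes an HSP70 partner of the HSP110 family, gave 133 CPM against 22.6 CPM in the control pair and 19.7 CPM against 16.1 CPM in the laser pair.

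The ratio was largest where WT cells hardly expressed the gene. B cells held 1272 Hspa1a UMIs in 67 Nr4a1-/- cells and 15 UMIs in 6 WT cells (ratio 149, 90.1 to 267). NK cells held 134 UMIs in 11 Nr4a1-/- cells against 2 UMIs in 2 WT cells (112, 30.4 to 934), and T cells 292 UMIs against 15 (32.4, 19.3 to 58.7). The signal thus came from a minority of lymphocytes with many UMIs each. Myeloid cells had smaller ratios over a higher WT level: 18.8 in cDC2 (727 UMIs against 37), 11.8 in classical monocytes (647 against 71), 6.32 in Lyve1 macrophages (1161 against 387) and 2.82 in microglia (1090 against 619). Neutrophils had no listed chaperone past 2-fold among 4 tested, beside 0.938% higher and 1.25% lower over all genes tested in that gate.

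The share of cells with a UMI of Hspa1a or Hspa1b was 16.6% of Nr4a1-/- B cells (13.3% to 20.2%) and 1.25% of WT B cells (0.603% to 2.29%), and 28.1% of all Nr4a1-/- cells against 13.7% of all WT cells. With each cell thinned to 2000 UMIs, which left out 135 Nr4a1-/- and 396 WT cells, these shares were 13.3% against 0.681% in B cells and 19.8% against 7.66% in all cells. In microglia the unthinned shares were 68.0% and 56.5%. The laser pair had 1.25% of Nr4a1-/- B cells against 1.89% of WT B cells.

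The other chaperones moved less. Hsph1 was higher in each of the 7 gates where it was tested, with 294 UMIs against 65 in B cells (7.96, 6.06 to 10.6). Dnajb1, an HSP40 co-chaperone, was 89.0 CPM against 24.2 CPM in B cells and 530 CPM against 374 CPM in microglia, and was past 2-fold in 4 of 7 gates. Bag3, an HSP70 co-chaperone of stress-induced autophagy, was past 2-fold in 4 of 5 gates, with 123 CPM against 34.5 CPM in microglia. Hsp90aa1, the inducible HSP90, was 943 CPM against 342 CPM in B cells and past 2-fold in 4 of 8 gates. Hspb1, a small heat shock protein, was 42 UMIs against 19 in Lyve1 macrophages, with 76.2% of the Nr4a1-/- UMIs in 1 cell. The laser-pair median of these 6 shared genes lay between -0.40 and 0.50 on the log2 scale. With thinned cells, Hspa1a, Hsph1 and Hsp90aa1 were the shared genes that still passed in at least 4 gates, and cDC2 then fell under 50 cells.

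**Figure D3:**
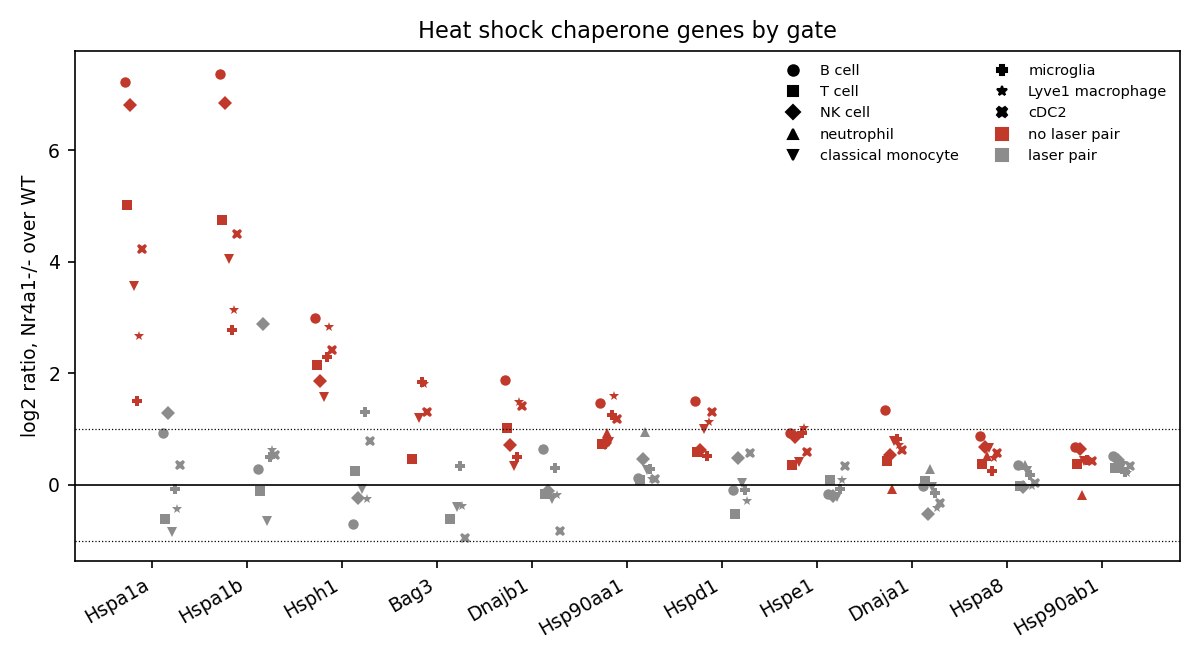
Log2 ratio of Nr4a1-/- over WT (vertical axis) for heat shock chaperone genes in each gate, with 1 symbol per gate, red for the no laser pair and grey for the laser pair; dotted lines mark 2-fold. Red symbols for Hspa1a, Hspa1b and Hsph1 lie above the upper line in each of the 7 gates where they were tested, while most grey symbols lie between the lines.

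Genes called lower in at least 4 gates were 7 of 6081 (0.115%), among them Nr4a1, Cxcl2, Il31ra, Hist1h4d and the gene models Gm10076 and Gm47283. Gm10076 was lower in 7 of 7 gates with a median log2 ratio of -2.11, for example 54.5 CPM in Nr4a1-/- B cells against 238 CPM in WT B cells, and was past 2-fold in 7 gates of the laser pair too. Gene models can share reads with near-identical copies, so their counts are uncertain. Il31ra, a cytokine receptor subunit, was lower in 7 of 7 gates, with 45 UMIs against 220 in B cells and 34 against 165 in Lyve1 macrophages.

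Hist1h2ap and Hist1h4d, both histone genes, of a class whose transcripts mostly lack a poly(A) tail, were lower too; histone genes were not compared as a list. Hist1h2ap gave 2 UMIs in 2 Nr4a1-/- B cells against 104 UMIs in 93 WT B cells (ratio 0.0338, 0.00404 to 0.125), and 8 UMIs against 227 in T cells. Summed over all cells it was 15 UMIs in Nr4a1-/- and 712 UMIs in WT. Hist1h4d was lower in 5 of 6 gates, with 87 UMIs against 319 in B cells and 111 against 417 in T cells, and its laser-pair median was 0.15 on the log2 scale. In T cells its log2 ratio was -0.94 with thinned cells. Histone genes form a cluster of near-identical copies, so which copy a read came from is uncertain.

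Chemokine ligands, the secreted proteins that draw leukocytes, were lower more often than higher, with 20 of 63 tested pairs of gene and gate lower (31.7%, beside 1.31% over all pairs) and 1 higher. Of the 20 lower pairs, 8 were in the B, T and NK cell gates, and the markers of other cell types found in the B and T cell gates are given with those gates. Cxcl2, a ligand of CXCR2 that attracts neutrophils, was 928 UMIs in Nr4a1-/- classical monocytes against 3572 in WT (655 CPM against 1939 CPM, ratio 0.338, 0.314 to 0.363), and with thinned cells its log2 ratio there was -0.91. In microglia it was 423 UMIs against 1478 (0.458, 0.41 to 0.51), with a laser-pair ratio of 1.53. In neutrophils, with the highest level, it was 3533 CPM against 3630 CPM, under 2-fold. In B cells 52.4% of the 63 Nr4a1-/- UMIs and 40.5% of the 380 WT UMIs were in 1 cell, and the log2 ratio was 0.011 with thinned cells.

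Macrophage activation genes, among them cytokines and the inflammasome sensor Nlrp3, had 9 of 47 tested pairs lower (19.1%, beside 1.31% over all pairs) and 0 higher, and 5 of the 9 were in the B and T cell gates. Il1a, an alarmin, was 11 UMIs in Nr4a1-/- classical monocytes against 105 in WT (0.136, 0.066 to 0.254). Il12b, the p40 subunit of IL-12 and IL-23, was 0 UMIs in Nr4a1-/- microglia against 113 UMIs in 7 WT microglia, of which 61.1% were in 1 cell. Immediate-early genes, the class to which Nr4a1 belongs, had 8 of 133 pairs lower (6.02%, beside 1.31% over all pairs) and 0 higher, and their list medians lay between -0.34 and 0.22. The other NR4A genes did not share a direction: Nr4a3 was 20 UMIs against 96 in neutrophils (0.394) and 11 against 81 in Lyve1 macrophages (0.286), whereas Nr4a2 was 64 UMIs against 55 in Lyve1 macrophages (2.45, 1.68 to 3.58). The Nr4a2 difference fell to a log2 ratio of 0.68 without the highest cell of each library, which held 45.3% of the Nr4a1-/- UMIs, and the Nr4a3 difference in Lyve1 macrophages to -0.30 with thinned cells and -0.49 with 3 gate markers.

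Microglia, the resident macrophages of the retina, were gated on Tmem119, P2ry12, Sparc, Sall1, Gpr34 and Slc2a5, and these summed to 39.4 UMIs per 10000 in Nr4a1-/- and 38 in WT. Of 14 tested homeostatic microglia genes, 0 were past 2-fold, near the 1.08% higher and 1.18% lower over all genes tested in this gate. The largest ratio over all genes named in it was that of Dpys, which encodes the pyrimidine-degrading enzyme dihydropyrimidinase: 119 UMIs in 60 of 194 Nr4a1-/- cells against 2 UMIs in 2 of 313 WT cells (ratio 95.1, 25.8 to 795). Its level was 77.2 CPM in Nr4a1-/- control, 0.812 CPM in WT control, 42.3 CPM in Nr4a1-/- laser and 3.11 CPM in WT laser, so both knockout libraries were above both WT libraries.

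Dcstamp, a membrane protein of macrophage fusion, gave 92 UMIs against 10 (14.7, 7.65 to 31.7), and 33 against 49 UMIs in the laser pair, a ratio of 5.72. Zfpm2, a zinc finger cofactor of GATA factors, gave 102 UMIs in 48 Nr4a1-/- microglia against 13 UMIs in 10 WT microglia (12.5, 7.02 to 24.4; laser-pair ratio 5.78). Dcstamp, Dpys and Zfpm2 are neighbours on chromosome 15, between 39745930 and 41104592 on GRCm38, about 61 megabases from Nr4a1. In all cells, the microglia gate included, Dpys was 289 UMIs against 45 (11.5) and Zfpm2 346 against 65 (9.53). Most UMIs of both genes thus lay outside the microglia gate in either library, but neither gene reached the level minimum in another gate. Cells of no gate held 31.1% of the WT UMIs of Dpys and 58.5% of those of Zfpm2.

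MHC class II genes, which present peptides to CD4 T cells, were higher in Nr4a1-/- microglia in 4 of 8 tested members: H2-Aa, H2-Ab1, H2-Eb1 and the invariant chain Cd74. Over all genes tested in microglia, 1.08% were higher. Over the 8 gates the list had 4 of 57 pairs higher and 4 lower (7.02% each), the lower ones all in NK cells. In microglia, H2-Eb1 was 69.5 CPM in Nr4a1-/- against 11 CPM in WT (6.34, 4.12 to 10.1) and 143 CPM against 32.1 CPM in the laser pair. H2-Ab1 was 108 CPM against 24.4 CPM (4.42, 3.27 to 6.05) and 228 CPM against 62.3 CPM in the laser pair. Few cells carried the signal, since the single highest Nr4a1-/- cell held 47.7% of the H2-Eb1 UMIs and 37.3% of the H2-Ab1 UMIs. Cd74 was 618 UMIs in 91 cells against 381 UMIs in 132 cells (2.59, 2.28 to 2.95). With thinned cells the log2 ratios of H2-Aa and Cd74 were 0.69 and 0.65, under 2-fold. The antibody tag for MHC class II, I-A_I-E, had a log2 ratio of 0.469 in microglia, also under 2-fold. That tag value leaves out the 2% of cells with the most UMIs of the tag. Markers of other antigen-presenting cells in this gate were 12 UMIs against 19 for cDC2 and 91 against 90 for B cells, or 0.591 against 0.365 per 10000. Their part in the result was not tested.

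Klf2, a transcription factor of quiescence, was 1739 UMIs in Nr4a1-/- microglia and 1303 in WT microglia (2.13, 1.99 to 2.29; laser-pair ratio 1.34). Of 11 tested interferon-stimulated genes in microglia, 2 were lower (Ifit2 and Isg15) and 1 higher (Cxcl9, 72 UMIs against 8). Over all genes tested in this gate, 1.18% were lower and 1.08% higher. Isg15, a ubiquitin-like modifier, was 46 UMIs against 206. Ifih1, the RNA sensor MDA5, which was not on that list, was 35 UMIs in 28 cells against 232 UMIs in 84 cells (0.241, 0.164 to 0.345), and 0.406 in the laser pair. Ifit2 was 4 UMIs against 104, with 52.9% of the WT UMIs in 1 cell and a log2 ratio of -0.82 with thinned cells. Mki67, a marker of dividing cells, was 6 UMIs against 60 (0.16, 0.0564 to 0.369), and the 5 cycling genes together 13 UMIs against 156. Acod1 (16 UMIs against 82) and Spp1 (6 against 55) were under 2-fold with thinned cells, at a log2 ratio of -0.14 each.

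**Figure D4:**
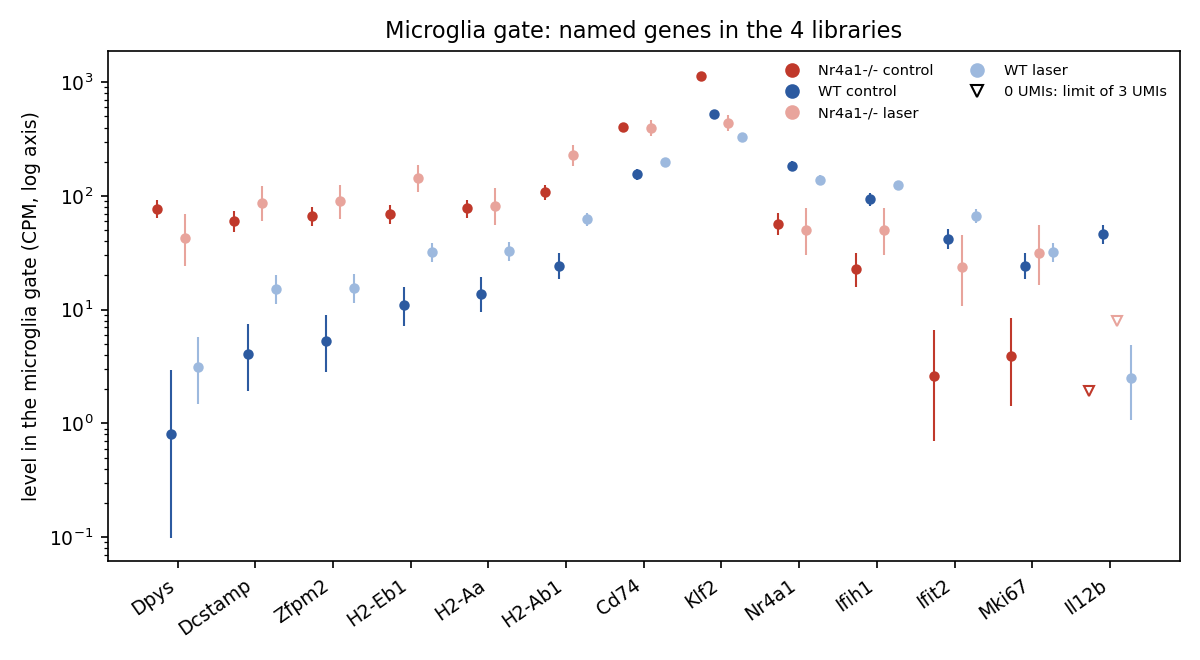
Level in the microglia gate (CPM, log axis) of 13 genes in the 4 libraries, each point with its 95% counting interval and triangles for the limit of 3 UMIs at a count of 0; within a gene the order is Nr4a1-/- control, WT control, Nr4a1-/- laser, WT laser. Dpys, Dcstamp, Zfpm2 and H2-Eb1 are higher in both Nr4a1-/- libraries than in both WT libraries.

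Classical monocytes, the cells from which non-classical monocytes arise, had 60 genes higher and 113 lower. Ms4a6d, a membrane protein of myeloid cells, was 431 UMIs in 95 of 130 Nr4a1-/- cells against 172 UMIs in 80 of 187 WT cells (3.26, 2.72 to 3.91; laser-pair ratio 1.72). Fdps, an enzyme of isoprenoid synthesis, was 141 UMIs against 58 (3.16, 2.31 to 4.37), and Clec5a, a lectin receptor of myeloid cells, 32 against 13 (3.2, 1.63 to 6.64). These genes were spread over many cells, in contrast to F11r, where 1 cell held 76.9% of the 39 Nr4a1-/- UMIs.

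The complement genes C1qa and C1qc, expressed by tissue macrophages, were lower in this gate, with 31 UMIs against 247 for C1qa (0.163) and 15 against 130 for C1qc (0.15). With 3 gate markers required these log2 ratios were -0.34 and -0.32. Lyve1 macrophage markers in the same gate were 1.17 UMIs per 10000 in Nr4a1-/- and 3.79 in WT, and neutrophil markers 2.08 and 3.83, and their part in the result was not tested. Pglyrp1, a bactericidal protein, was 9 UMIs in 9 cells against 79 UMIs in 38 cells (0.148, 0.0653 to 0.296). Trem2, a lipid-sensing receptor of macrophages, was 35 UMIs against 115 (0.396, 0.263 to 0.582). Ccl5 and Cxcl9 were also lower, but 1 WT cell held 90.1% and 65.5% of their UMIs, and with thinned cells their log2 ratios were 0.98 and 0.92.

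Lyve1 macrophages, perivascular and choroidal macrophages marked by Lyve1, Folr2 and Mrc1, had the highest summed level of heat shock chaperones among the 8 gates of the Nr4a1-/- control, 96.1 UMIs per 10000 against 43.2 in WT. Iigp1, an interferon-gamma-induced GTPase, was 76 UMIs in 16 of 84 Nr4a1-/- cells against 749 UMIs in 62 of 180 WT cells (0.214, 0.167 to 0.271), with 1.23 in the laser pair. Il1rap, the shared subunit of IL-1 family receptors, was 10 UMIs against 87 (0.242), and Aqp1, a water channel, 9 against 68 (0.279). Lyz1 was 107 UMIs in 11 cells against 50 UMIs in 14 cells (4.51, 3.19 to 6.44). Ccl5 (3 UMIs against 176) rested on 1 WT cell with 97.2% of the UMIs, and Cxcl1 (23 against 194) had a log2 ratio of 0.10 with thinned cells.

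In cDC2, 4 of 8 tested interferon-stimulated genes were lower (Isg15, Gbp2, Cxcl9 and Cxcl10), beside 2.02% lower over all genes tested in that gate. Cxcl9 and Cxcl10, the CXCR3 ligands that attract effector T cells, were 26 UMIs against 241 (0.103, 0.0661 to 0.155) and 58 against 302 (0.184, 0.136 to 0.244), and were lower in the laser pair as well, at 0.214 and 0.151. The Nr4a1-/- UMIs of Cxcl9 came from 3 of 55 cells and the WT UMIs from 15 of 58. Egr1, an immediate-early transcription factor, was 128 UMIs against 384 (0.319, 0.259 to 0.391), and its relative Egr2 was 9 against 33 (0.261). Cebpb, a myeloid transcription factor, was higher, with 269 UMIs in 36 cells against 115 UMIs in 33 cells (2.24, 1.79 to 2.81). Heatr5a and Sec24a, both of vesicle traffic, were 43 UMIs against 6 and 40 against 6.

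Neutrophils had few UMIs per cell and 2239 genes tested. Asprv1, a protease of mature neutrophils, was 205 UMIs in 36 of 85 Nr4a1-/- cells against 182 UMIs in 53 of 143 WT cells (2.13, 1.74 to 2.62), but 0.489 in the laser pair. Oasl1, an interferon-stimulated gene, was 44 UMIs against 32 (2.6, 1.61 to 4.24). Egr1 was 29 UMIs against 134 (0.409), with 3.43 in the laser pair, and a log2 ratio of -0.98 with 3 gate markers. Creb5 was 6 UMIs against 81, and 43.2% of the WT UMIs were in 1 cell. Classical monocyte markers in this gate were 0.944 UMIs per 10000 in Nr4a1-/- and 3.34 in WT.

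Genes known for myeloid cells were among the lower genes of the B and T cell gates. Those named here were chosen after their values were seen, and how many of the 114 and 92 lower genes are of this kind was not counted. In B cells, Mertk, a receptor for dying cells on macrophages, was 5 UMIs against 90 (0.0977), Nlrp3 21 against 149 (0.248) and Il1b 66 against 421 (0.276). Nlrp3 and Il1b had log2 ratios of -0.43 and -0.76 with thinned cells. G0s2 was 0 UMIs in Nr4a1-/- B cells against 83 UMIs in 10 WT B cells, at least 15.7-fold lower with 0 read as 3 UMIs, but 54.2% of the WT UMIs were in 1 cell and the log2 ratio was -0.17 with thinned cells. Neutrophil markers in the B cell gate were 32 UMIs (0.152 per 10000) in Nr4a1-/- and 783 UMIs (2.11 per 10000) in WT, and T cell markers 16 and 152 UMIs. In T cells, Retnla, a product of alternatively activated macrophages, was 16 UMIs against 376 (0.0709, 0.0401 to 0.117), with neutrophil markers at 0.0549 and 0.593 per 10000. The part of these other cells in the results was not tested.

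Cxcr3 and Fosb were lower in the T cell gate. Cxcr3, the receptor of CXCL9 and CXCL10 on effector T cells, was 31 UMIs in 23 of 320 Nr4a1-/- T cells against 112 UMIs in 60 of 538 WT T cells (0.461, 0.299 to 0.691; laser-pair ratio 0.885). Fosb was 112 UMIs against 411 (0.454, 0.365 to 0.561; laser-pair ratio 0.898). In this gate 0 of 13 tested T cell activation and checkpoint genes and 0 of 10 resting and memory T cell genes were past 2-fold. Over all genes tested in the gate 0.273% were higher and 1.2% lower, so these counts of 0 are near the background. Over all 8 gates these lists had 1 of 38 pairs lower (Havcr2 in cDC2) and, of 56 pairs, 3 lower (Il7r in B and NK cells and Satb1 in cDC2) and 1 higher (Klf2 in microglia). All tested pairs had 0.787% higher and 1.31% lower.

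In NK cells C1qa, C1qb and C1qc were 9, 13 and 6 UMIs in the Nr4a1-/- control against 135, 134 and 68 in the WT control, and MHC class II members H2-Aa, H2-Ab1, H2-Eb1 and Cd74 were lower in this gate, with a log2 ratio of -0.41 for H2-Ab1 with thinned cells. Single WT cells held 57% of the C1qa and 65.1% of the Apoe UMIs. In the laser pair the 3 complement genes went the other way, with ratios of 6.85, 3.23 and 7.12. Among genes higher in NK cells, Rgs16, an inhibitor of G protein signals, was 58 UMIs in 26 of 181 Nr4a1-/- cells against 28 UMIs in 19 of 321 WT cells (3.46, 2.17 to 5.64), and Rpa2, a single-stranded DNA binding protein, was 78 UMIs against 57 (2.29, 1.6 to 3.28).

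Summed over all kept cells, 84 genes were higher (0.652% of 12879) and 231 lower (1.79%). In such sums, fewer cells of a type and less RNA per cell cannot be told apart. Of the 315 called genes, 227 were tested in no gate, and of the 88 tested in a gate 48 had a mean gate ratio past 2-fold in the same direction. Fabp4, a fatty acid carrier, was 12 UMIs in 5 Nr4a1-/- cells against 582 UMIs in 165 WT cells (0.0369, 0.019 to 0.065). The 5 fibroblast markers were 22 UMIs against 1047, of which 93.4% came from 12 WT cells, 11 of them in no gate, with 0 such Nr4a1-/- cells. Dcn, a matrix protein of fibroblasts, was thus 11 UMIs against 633, and Mgp 9 against 553. The non-classical monocyte markers, which define that gate, were 0.882 UMIs per 10000 in Nr4a1-/- and 3.40 in WT.

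On chromosome 15, where Nr4a1 lies, 43 of 381 tested genes (11.3%) were called in at least 1 gate, against 7.91% over the genome. The other chromosomes ran from 5.15% (chromosome 8) to 11.1% (chromosome 13). By distance from Nr4a1, 4 of 23 tested genes were called within 1 megabase (17.4%), 4 of 60 between 1 and 5 megabases (6.67%), 3 of 75 between 5 and 20 megabases (4%), 15 of 136 between 20 and 50 megabases (11%) and 16 of 86 beyond 50 megabases (18.6%). The share was thus lowest at 5 to 20 megabases and higher on both sides. With a level minimum of 50 UMIs it was 2.84% on chromosome 15 and 2.52% over the genome, and with thinned cells 3.17% and 3.95%. Genes known to differ between mouse strains had 1 of 29 tested pairs lower (3.45%, beside 1.31% over all pairs) and 0 higher. Only 1 to 9 of the 12 listed members passed the level minimum in any 1 gate. Summed over all cells 11 were tested, and 1 was lower (Gbp2b, log2 ratio -1.67) and 0 higher, beside 1.79% lower over all genes tested there.

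The surface tags differed between the libraries far more often than the genes did. Of 603 pairs of a tag and a gate, 99 were at least 2-fold higher (16.4%) and 118 lower (19.6%) by summed tag UMIs. Single cells dominated these sums: 1 Nr4a1-/- cell held 95.6% of all Ly-6G UMIs of its library, and 1 WT cell held 98.4% of CD86. In the neutrophil gate, with that Ly-6G cell, 73 of 86 tags were lower by sums. The 2% of cells with the most UMIs of a tag were therefore left out, an alternative chosen after seeing the data, and 80 of 543 pairs were then higher (14.7%) and 73 lower (13.4%). All tag levels that follow are trimmed sums per 10000 tag UMIs, given as the lowest, median and highest of the 8 gates.

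CD11c, the integrin of dendritic cells and activated macrophages, was 0, 1.16 and 6.85 in the Nr4a1-/- control and 9.38, 22.5 and 109 in the WT control. It was 12.9, 34.6 and 132 in Nr4a1-/- laser and 10.2, 21.2 and 92.8 in WT laser. The Nr4a1-/- control was thus below each of the other libraries in 8 of 8 gates, with a tag on 1.88% to 25.5% of its cells against 33.5% to 86.2% of WT control cells. Its gene Itgax did not differ by 2-fold, at 27.5 CPM in Nr4a1-/- and 26.0 CPM in WT over all cells (ratio 1.06, 0.928 to 1.21).

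CD106, the adhesion protein VCAM-1, was 25.9, 37.8 and 80.3 in the Nr4a1-/- control and 0, 0.0692 and 0.745 in the WT control. Its laser values were 11.2, 20.2 and 27.2 in Nr4a1-/- and 7.54, 11.7 and 33.3 in WT, so the WT control lay below each of the other libraries in 8 of 8 gates. Vcam1 was 19.8 CPM in Nr4a1-/- and 18.7 CPM in WT. CD64, the Fc receptor used to mark macrophages, was 10.3, 17.7 and 236 in the Nr4a1-/- control and 0, 0.685 and 1.99 in the WT control, again with the WT control lowest of the 4 libraries in 8 gates. Fcgr1, its gene, was 62.4 CPM and 49.1 CPM (1.27, 1.16 to 1.39).

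CD103, the integrin of intraepithelial T cells and cDC1, was 14.6, 27.4 and 53.0 in the Nr4a1-/- control and 1.85, 2.44 and 11 in the WT control, and the Nr4a1-/- control was highest of the 4 libraries in 8 gates. CD4 was 36.3, 53.8 and 415 against 8.10, 12.2 and 151, likewise with the Nr4a1-/- control highest in 8 gates, the B and NK cell gates included. CD317, the interferon-induced protein tetherin, was 7.84, 27 and 66.1 against 1.66, 3.86 and 11.4, with the WT control lowest in 8 gates. Bst2, which encodes it, was 221 CPM and 145 CPM (1.53, 1.45 to 1.61). Over the 85 tags compared in the 8 gates, the Nr4a1-/- control was above each of the other libraries in every gate for 5 tags (CD4, CD103, CD106, CD196 and VISTA) and below them for 1 (CD11c), while the WT control was below them for 10 tags and above them for 0. These tags differed in B, T and NK cells as in phagocytes, and no isotype control tag was used, so unspecific binding was not measured.

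**Figure D5:**
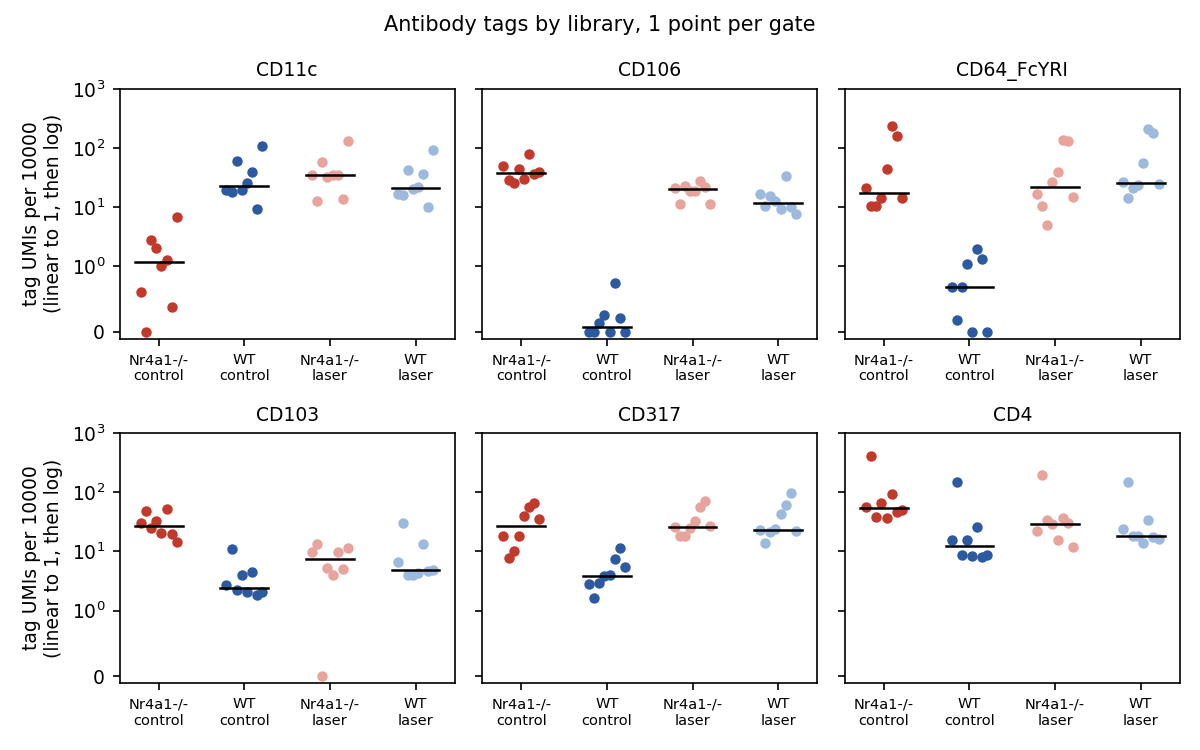
Trimmed tag UMIs per 10000 tag UMIs (vertical axis, linear to 1 and then logarithmic) of 6 antibody tags in the 4 libraries, with 1 point per gate and a bar at the median of the 8 gates. CD11c is low in the Nr4a1-/- control library alone, whereas CD106, CD64_FcYRI and CD317 are low in the WT control library alone.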

How the data were processed

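The authors ran Cell Ranger 7.0.1 on 10x libraries against mm10, and the deposited tables hold unnormalized UMI counts for 32285 genes and 87 tags in each called barcode. The labels name the 3' v2 kit and the study's methods v3. All 4 ADT samples carry the same genotype and treatment labels, against the titles of 3, and the titles were followed.

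The counts were used as deposited. Each marker was log-normalized per 10000 UMIs and scaled to the mean of its 20 highest cells over the 4 libraries. A cell entered the gate with the highest mean marker score when that score was at least 0.25 and 1.5 times the next and at least 2 markers had a UMI. Doublets were limited by the upper gene limit and by this rule, and no caller was run. UMIs were summed per gate and library and scaled to CPM. A count of 0 was read as 3 counts. Ratios carry exact conditional binomial intervals and shares Clopper-Pearson intervals, at 95%. The calling code was tested on simulated counts.

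The members, markers and lists were chosen with earlier results of these data known. Named are Nr4a1, the largest ratios of each of 18 gene lists, up to 8 genes per direction and gate whose interval lay past 1.5-fold (without gate markers, receptor segments and unnamed models), and genes called in at least 4 gates. Individual genes among these were picked for the text after their values were seen. GENCODE M21 matched 32158 of the 32285 gene identifiers and gave positions, and RefSeq GRCm38.p6 the promoters. Alternatives were other filters, thinning to 2000 UMIs, 3 gate markers, other totals and centring, level minimums of 10 and 50 UMIs and leaving out single cells. Per the file headers the tags include no isotype control. Tables were handled with pandas 2.3.3 and numpy 2.4.6, intervals came from scipy 1.17.1 and plots from matplotlib 3.10.9, under Python 3.11.15.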

Additional observations from a re-analysis of the deposited data

Results flagged for a closer look

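For 14 named pairs of a gene and a gate, the log2 ratio of Nr4a1-/- over WT was past 2-fold both without and with laser, but in opposite directions. The difference between the pairs was not tested, since each library is single. Opposite directions were not limited to these 14. Of the 114 lower genes in B cells, 34 were past 2-fold the other way in the laser pair and 12 the same way. For the 83 lower genes in microglia, these counts were 5 and 19. In all cells they were 7 and 100 of the 231 lower genes, and 17 and 6 of the 84 higher ones. In NK cells the macrophage genes C1qa, C1qb, C1qc, Apoe and Cd14 had control-pair log2 ratios of -3.17, -2.63, -2.76, -2.62 and -2.09, and laser-pair log2 ratios of 2.78, 1.69, 2.83, 2.97 and 1.40. Microglia markers in the NK gate were 0.0889 UMIs per 10000 in the Nr4a1-/- control and 0.12 in the WT control, and 0.575 in Nr4a1-/- laser and 0.142 in WT laser. Hist1h4d in NK cells was -1.31 without and 1.99 with laser.

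In B cells, Cxcl2 was -1.78 and 1.32, Dab2 -2.80 and 2.39, and Gzma -1.51 and 5.64, the control pair first. Lyve1 macrophage markers in the B cell gate were 0.227 UMIs per 10000 in the Nr4a1-/- control against 0.423 in the WT control, and 1.56 in Nr4a1-/- laser against 0.394 in WT laser. With thinned cells the control-pair log2 ratios of Dab2 and Gzma were -0.88 and -0.12. Cd83 in T cells was -1.74 and 1.33, and Egr1 in neutrophils -1.29 and 1.78.

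Ifit3 in classical monocytes was 1.76 in the control pair (47 UMIs in Nr4a1-/- against 18 in WT) and -1.38 in the laser pair (23 against 249), and 0.34 in the control pair with thinned cells. Cxcl9 in microglia was 3.85 (72 UMIs against 8) and -1.91 (0 against 96, with 0 read as 3). Areg in cDC2, which encodes the growth factor amphiregulin, was 2.62 (45 UMIs against 7) and -2.26 (17 against 281).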

How the results depend on the processing

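No paired analysis was possible because each genotype is 1 pooled library. Over the 8 gates, 361 pairs of a gene and a gate were called higher and 600 lower. Thinning gave 127 and 171, a level minimum of 50 UMIs 86 and 173, a minimum of 10 UMIs 1040 and 1510, and a whole interval past 2-fold 64 and 139. Over all cells, the 84 higher and 231 lower genes became 37 and 76 with thinning, 30 and 92 at 50 UMIs, 172 and 423 at 10 UMIs, 27 and 98 by the whole interval, and 47 and 94 by the mean of the gate ratios. Of the 6 shared higher genes, 3 each were left with thinning, with 3 gate markers and by the whole interval, and cDC2 fell under 50 cells in the first 2 of these. Shared lower genes were 3 with thinning, 16 at 10 UMIs and 4 by the whole interval. The chromosome 15 share was 3.17% with thinning (3.95% over the genome), 2.84% at 50 UMIs (2.52%), 20.4% at 10 UMIs (18.1%) and 2.62% by the whole interval (1.30%). As shares of gated cells, 3 gates had an interval without 1, and classical monocytes and retinal pigment epithelium no longer did. Pairs of a tag and a gate called lower were 49 with centred ratios and 73 with trimmed sums. The fewer cells, the stricter rule and the larger set of genes tested come with these settings by construction; the cause of the other shifts was not tested.

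The median log2 ratio of Nr4a1 over gates stayed between -1.80 and -1.66 under each alternative run. Of 111 called pairs of a gene and a gate followed here, 86 were past 2-fold in the same direction in each of 7 settings in which they could be followed. A setting that lacked a pair was not counted against it. With thinned cells 101 pairs could be followed and 80 stayed past 2-fold, and with 3 gate markers 87 of 91 did. With thinned cells the direction reversed for Cxcl2 in B cells (0.011), Ccl5 (0.98) and Cxcl9 (0.92) in classical monocytes and Cxcl1 in Lyve1 macrophages (0.10), and without the highest cell for Ccl5 in classical monocytes (0.50). With thinning, non-classical monocytes in the Nr4a1-/- control numbered 0.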

Other observations

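Over all tested pairs of a gene and a gate, 0.787% were higher and 1.31% lower in the Nr4a1-/- control, and the remaining lists are given beside these shares. MHC class I and antigen processing genes had 0 of 102 higher and 1 lower (0.98%), Tap2 in cDC2. B cell state genes had 0 of 55 higher and 1 lower (1.82%), which was Cd83 in the T cell gate, and glycolysis genes 0 of 80 higher and 2 lower (2.5%), both Hk2. Other lists had larger shares. Interferon-stimulated genes had 5 of 87 higher (5.75%) and 9 lower (10.3%), 4 of the 9 in cDC2. Cytotoxic effector genes had 0 of 31 higher and 5 lower (16.1%), 0 of them in NK cells, and 3 of the 5 were Ccl5. Neutrophil granule and maturation genes had 1 of 26 higher (3.85%) and 3 lower (11.5%), 0 of them in neutrophils. Chemokine receptors had 3 of 50 higher (6%) and 2 lower (4%), and phagocyte lysosome and lipid genes 2 of 68 higher (2.94%) and 5 lower (7.35%).

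Among the tags, VISTA, a checkpoint ligand of myeloid cells, was highest in the Nr4a1-/- control among the 4 libraries in 8 of 8 gates. Its lowest, median and highest gate values were 38.6, 76.1 and 1143 per 10000 in the Nr4a1-/- control and 23.4, 37.1 and 529 in the WT control. Its gene Vsir was 127 CPM and 119 CPM over all cells (ratio 1.07, 1.00 to 1.13). CD31, an endothelial and leukocyte adhesion protein, was 7.20, 21.9 and 122 against 1.85, 7.69 and 61.2, with the WT control lowest in 8 gates, whereas Pecam1, its gene, was lower in Nr4a1-/- (76.8 CPM against 101 CPM, 0.757, 0.703 to 0.815).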
